A study of Homo sapiens with 18 samples.

Results

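The genes described here are the human metalloproteinases of the MMP, ADAM and ADAMTS families together with their inhibitors, the TIMPs. Members were taken by symbol, as every gene named MMP, ADAM or ADAMTS with a number, plus TIMP1 to TIMP4. The families themselves were chosen with earlier results of these data known. The rule found 67 of the 19849 genes in the table, made up of 22 MMP, 22 ADAM, 19 ADAMTS and 4 TIMP genes, each measured by 1 probe set. All 67 matched a RefSeq gene, and 2 of them, ADAM5 and ADAM6, are annotated there as pseudogenes.

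Gene expression was measured in 3 human non-small cell lung cancer cell lines before and after an epithelial-mesenchymal transition (EMT) was induced with TGFβ. Of these lines, HCC827 is driven by mutant EGFR. The parental cells were untreated, and the cells called EMT were grown in 2 ng/ml TGFβ for 3 weeks by the sample labels and moved to medium without TGFβ on the day before lysis, so the TGFβ course and the state that followed it cannot be told apart. The study's methods give ranges of weeks that were longer for HCC827 and NCI-H358 than for A549, so line and length of exposure cannot be told apart where lines are compared. Each of the 6 groups held 3 Affymetrix arrays of total RNA, 18 in all, grown in the same medium with serum and glutamine. Each line is a single established culture, and the spread between its arrays is the spread between samples of that culture.

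MMPs are zinc-dependent proteases, secreted or held at the cell surface, that cut collagens, gelatins and other matrix proteins and are made as inactive proenzymes. ADAMs are membrane-anchored relatives known for releasing growth factors and receptors from the cell surface, although several ADAMs lack protease activity, and ADAMTS proteins are secreted enzymes that bind the matrix and process proteoglycans and procollagens. TIMPs bind the active site of these enzymes and block it. In carcinoma, these families are studied for their parts in matrix breakdown and invasion.

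Values are log2 expression levels after robust multi-array averaging (RMA), so a difference of 1 is a 2-fold difference. Levels are compared only within a gene, because probe sets differ in brightness. A gene was called changed, and described as having risen or fallen, when limma's moderated test gave a Benjamini-Hochberg adjusted p under 0.05 over all genes and the change exceeded 2-fold. A stricter rule, the cutoff of the study, required an adjusted p under 1e-05 and more than 5-fold. The array medians lay between 6.31 and 6.47. Of 5 epithelial marker genes, 3 fell in A549, and all 5 fell in the other lines, and CDH1, which encodes E-cadherin, fell by 5.81, 2.95 and 3.94 in the 3 lines. Of 5 mesenchymal markers, 2 rose in A549 and 4 rose in each of the other lines. Among 5 markers of leukocytes, endothelium and fibroblasts, LUM alone passed the test, and it rose in each line by 2.15, 3.93 and 2.15, in the same direction as most of the changes below. The log2 of the summed level of these 5 markers ranged from 6.61 to 6.79 in parental A549 and from 7.21 to 7.26 after EMT, from 6.88 to 7.13 and from 8.98 to 9.65 in HCC827, and from 8.66 to 8.74 and from 10.42 to 10.56 in NCI-H358. Without LUM, it lay between 6.43 and 7.11 on all 18 arrays. The leukocyte marker PTPRC stayed between 2.66 and 3.28 on every array. The part of other cells in the results was not tested, and in bulk RNA a larger share of cells that express a gene and more RNA per cell cannot be told apart.

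In A549, 11 members rose and 2 fell, against 4.15% and 3.87% of all genes in the same directions. In HCC827, 14 rose and 4 fell, against 4.89% and 6.58% of all genes. In NCI-H358, 10 rose and 3 fell, against 3.96% and 5.42%. The share of members that rose was thus 16.4%, 20.9% and 14.9%, above the share of all genes. The share that fell, 2.99%, 5.97% and 4.48%, was close to that of all genes. Because the families were chosen with earlier results of these data known, these shares are a description and not a test. Most members did not pass the 2-fold rule, although 23, 27 and 29 of the 67 had an adjusted p under 0.05 at any fold, and the median change over the 67 was 0.10 in each line, against medians over all genes of -0.02, 0.01 and 0.02.

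Past the stricter cutoff were 9 members for A549, 10 for HCC827 and 6 for NCI-H358, against 1.9%, 2.95% and 2.17% of all genes. Altogether 24 members changed in at least 1 line, of which 9 changed in 1 line, 10 in 2 lines and 5 in all 3, and none of the 24 rose in 1 line and fell in another. The 4 members that rose in all 3 lines were ADAM19, ADAMTS1, ADAMTS6 and TIMP2, against 0.761% of all genes. MMP7 was the 1 member that fell in all 3, against 0.907% of all genes. ADAMTS1 and ADAMTS6 were the 2 members that rose past the stricter cutoff in all 3 lines, against 0.121% of all genes. In each of the 44 combinations of a member and a line called changed, the parental and EMT arrays did not overlap, which the call itself makes likely. Whatever their call, 26, 33 and 36 of the 67 members had no overlap in the 3 lines, in the order above, where 52.4%, 51.2% and 51.6% of all genes had none, so a lack of overlap was no more frequent among members than among all genes in A549 and HCC827 and close to it in NCI-H358. The other 43 members, with changes between -0.70 and 0.98, did not pass in any line.

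**Figure D1:**
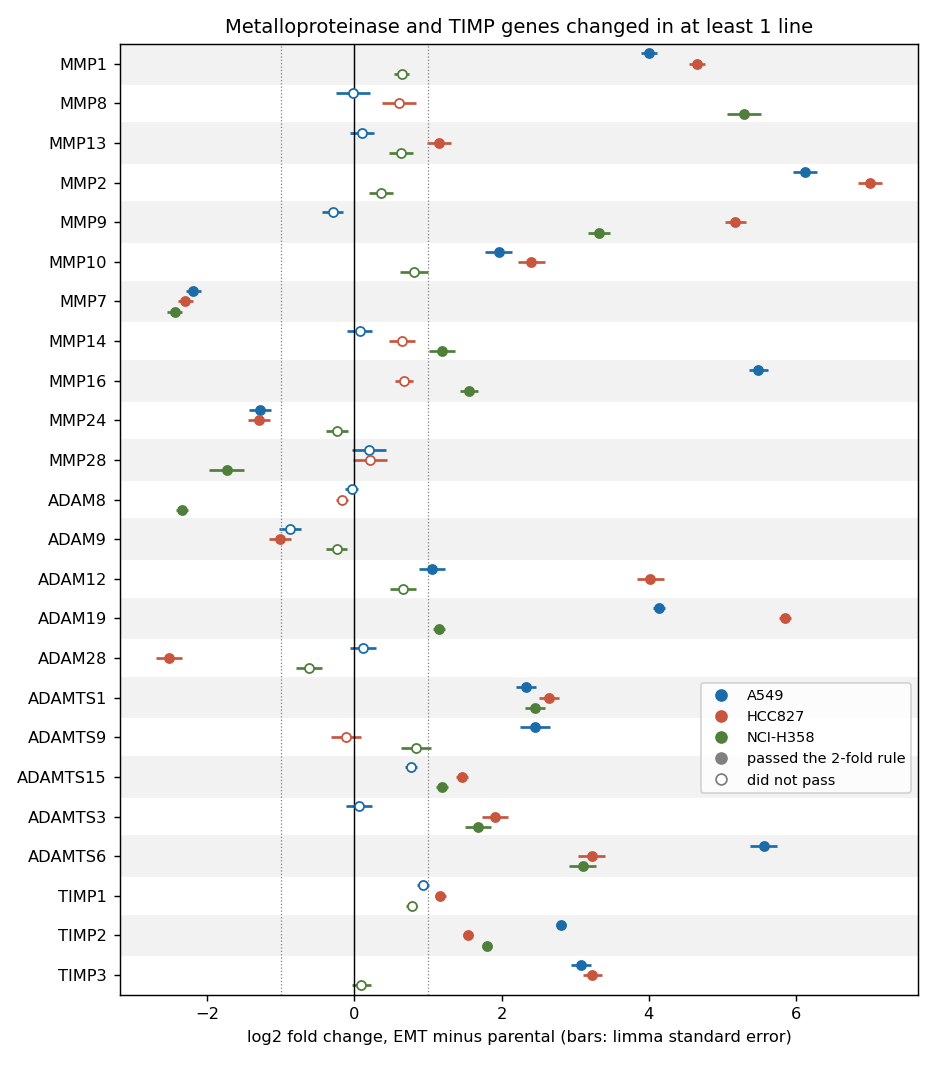
The log2 fold change from parental to EMT cells (x axis) is drawn for the 24 members changed in at least 1 line (y axis, ordered by role), with 1 point per line and bars for limma's standard error. Filled points passed the 2-fold rule, dotted lines mark 2-fold, and MMP7 is the only gene with filled points on the left in all 3 lines.

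The gelatinases MMP2 and MMP9, which digest denatured collagen and basement membrane collagen, took different paths in the 3 lines. MMP2 was at 5.87, 5.98 and 5.92 on the parental A549 arrays and at 12.04, 12.12 and 11.99 on the EMT arrays. In HCC827 its levels were 4.98, 5.60 and 5.54 before and 12.48, 12.15 and 12.51 after. In NCI-H358 they were 5.57, 5.39 and 5.62 before and 6.22, 5.56 and 5.87 after. MMP2 thus rose 70.0-fold in A549 (log2 6.13 ± 0.16 SE, adjusted p = 8.99e-15) and 129-fold in HCC827 (7.01 ± 0.16, adjusted p = 1.74e-15), while the NCI-H358 arrays overlapped. The NCI-H358 difference was 0.36, with a 95% interval from 0.02 to 0.70 and an adjusted p of 0.0899. Tested directly, the MMP2 change in NCI-H358 minus that in A549 was -5.77, with an interval from -6.25 to -5.29, and minus that in HCC827 it was -6.65.

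MMP9 was at 6.52, 6.43 and 6.41 in parental A549 and at 5.92, 6.09 and 6.45 after EMT. In HCC827 it went from 6.66, 6.82 and 6.95 to 11.81, 11.77 and 12.38, and in NCI-H358 from 8.07, 8.23 and 8.06 to 11.45, 11.34 and 11.54. MMP9 therefore rose 36.2-fold in HCC827 (5.18 ± 0.15, adjusted p = 2.22e-14) and 10.0-fold in NCI-H358 (3.32 ± 0.15, adjusted p = 7.54e-12). The A549 groups overlapped at -0.30 (interval -0.61 to 0.02, adjusted p = 0.12). HCC827 was the only line of the 3 in which both gelatinases rose, A549 raised MMP2, and NCI-H358 raised MMP9. These differences between lines passed the stricter cutoff when tested directly: the MMP9 change was larger than in A549 by 5.47 in HCC827 and by 3.62 in NCI-H358 (adjusted p = 2.57e-12 and 3.64e-10).

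The collagenases MMP1, MMP8 and MMP13, which open the triple helix of fibrillar collagens, also differed by line. MMP1 lay at 2.97, 2.85 and 2.95 in parental A549 and at 6.65, 7.07 and 7.06 after EMT, a 16.0-fold rise (4.00 ± 0.11, adjusted p = 1.09e-14). In HCC827 it went from 3.68, 3.74 and 3.58 to 8.12, 8.36 and 8.50, a 25.3-fold rise (4.66 ± 0.11, adjusted p = 1.74e-15). In NCI-H358 the parental cells were already at 6.91, 6.84 and 6.88, near the level of A549 after EMT, and the EMT arrays stood at 7.55, 7.58 and 7.42. That difference, 0.64 with an interval from 0.41 to 0.87, did not reach 2-fold although the arrays did not overlap.

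MMP8, the neutrophil collagenase, had the opposite distribution. Its NCI-H358 levels were 3.40, 3.73 and 3.68 before and 9.05, 8.82 and 8.82 after EMT, a 39.3-fold rise (5.30 ± 0.23, adjusted p = 6.83e-12). The probe set was in the lowest 25% by mean level, and the table has no detection call. A fold from a starting level this low is between RMA values and may not be that of the transcript. The same limit holds for MMP1 and MMP10 in A549 and HCC827 and for MMP16 and ADAMTS6 in A549, among others. In A549 MMP8 lay between 2.79 and 3.08 on all 6 arrays. In HCC827 the parental arrays were at 2.91, 3.03 and 2.69 and the EMT arrays at 3.00, 3.16 and 4.31, so that 1 EMT array stood above the rest. Without that array the HCC827 difference was 0.20 (adjusted p = 0.232), against 0.61 with it. The rise of MMP8 in NCI-H358 exceeded those in A549 and HCC827 by 5.32 and 4.69.

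MMP13, a collagenase with a wide substrate range, showed smaller steps. It was at 4.79, 4.49 and 4.58 in parental HCC827 and at 5.43, 5.66 and 6.21 after EMT, a 2.21-fold rise (1.15 ± 0.16, adjusted p = 1.43e-05). The same EMT array was the highest, and without it the change was 0.92, under 2-fold. NCI-H358 had the high levels, 8.50, 8.46 and 8.69 before and 9.28, 9.13 and 9.13 after (0.63, adjusted p = 0.00448). A549 lay between 3.64 and 4.14 on all 6 arrays, with a difference of 0.10.

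**Figure D2:**
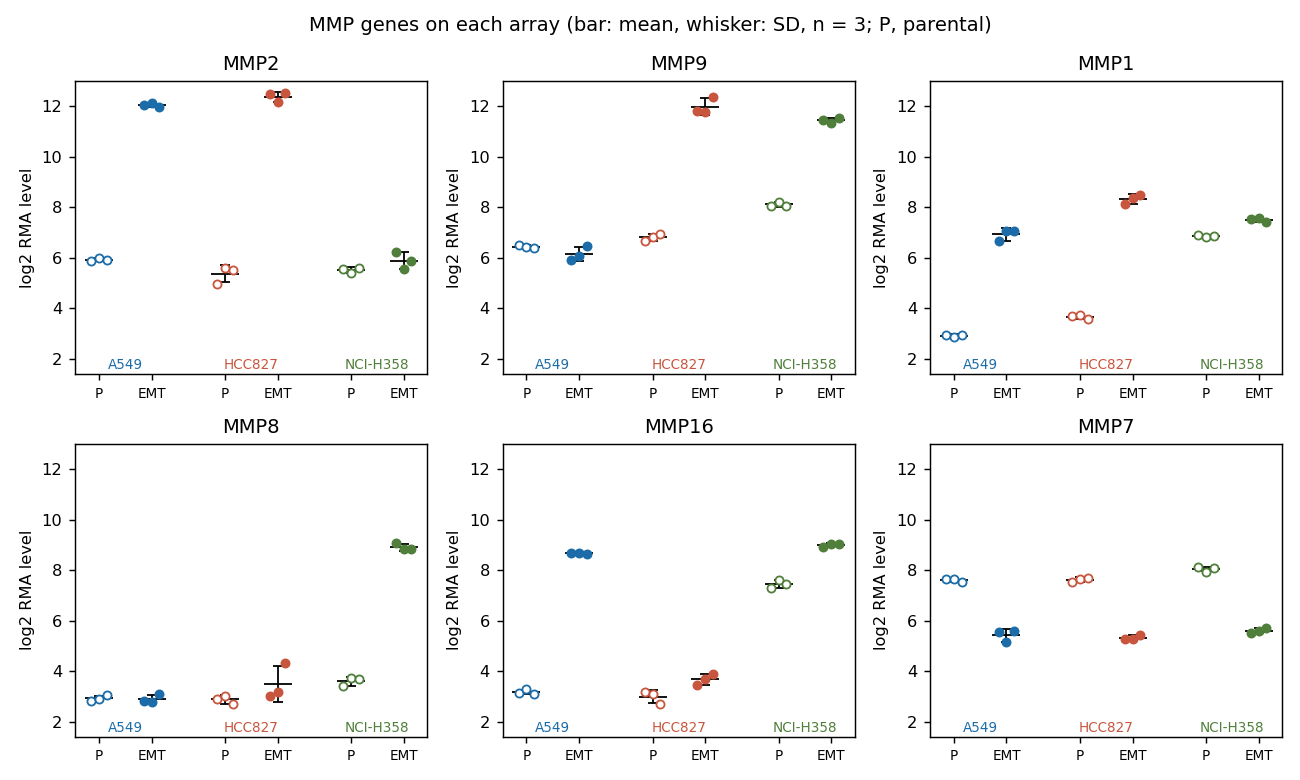
The log2 RMA level (y axis) of 6 MMP genes is plotted for each array by line and state (x axis), with open points for parental (P) and filled points for EMT arrays, and the mean and SD of 3 arrays. MMP2 and MMP1 separate widely in A549 and HCC827, MMP8 in NCI-H358, MMP16 in A549, and MMP7 is lower after EMT in all 3 lines.

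The stromelysins and the metalloelastase, MMP3, MMP10, MMP11 and MMP12, cut many matrix proteins and, in the case of MMP3 and MMP10, activate other MMP proenzymes. MMP10 alone among these changed. It was at 3.30, 3.35 and 3.14 in parental A549 and at 4.83, 5.51 and 5.35 after EMT (1.96 ± 0.19, adjusted p = 1.74e-07). In HCC827 it rose 5.30-fold, from 3.35, 3.20 and 3.04 to 5.81, 5.30 and 5.69 (2.41 ± 0.19, adjusted p = 9.17e-09), or 4.93-fold without the first EMT array. The NCI-H358 arrays went from 3.20, 3.82 and 3.74 to 4.22, 4.32 and 4.64 without overlap, and the difference of 0.81 stayed under 2-fold. MMP3 lay between 2.74 and 2.99 on all 18 arrays, with differences of -0.12, -0.05 and 0.20.

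MMP7, or matrilysin, is an epithelial MMP without the hemopexin domain of most relatives. It was at 7.65, 7.63 and 7.52 in parental A549 and at 5.53, 5.13 and 5.57 after EMT. In HCC827 it went from 7.53, 7.64 and 7.70 to 5.27, 5.26 and 5.44, and in NCI-H358 from 8.11, 7.94 and 8.09 to 5.52, 5.60 and 5.70. All 9 parental arrays were thus above all 9 EMT arrays. The falls were 4.57-fold, 4.92-fold and 5.43-fold (log2 -2.19, -2.30 and -2.44, each ± 0.10 SE; adjusted p = 1.44e-11, 5.77e-12 and 3.35e-12). The differences between lines in this change were within -0.55 and 0.19 by their 95% intervals.

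The membrane-type MMPs act at the cell surface, where MMP14 and MMP16 can activate the MMP2 proenzyme. MMP16 had the widest step of the 6 in A549, from 3.13, 3.28 and 3.11 to 8.68, 8.69 and 8.62, a 45.0-fold rise (5.49 ± 0.12, adjusted p = 1.25e-15). In NCI-H358 it rose 2.95-fold from a higher start, from 7.28, 7.60 and 7.43 to 8.93, 9.03 and 9.04. In HCC827 it moved from 3.19, 3.10 and 2.69 to 3.45, 3.67 and 3.88, a difference of 0.68 that was under 2-fold. The MMP16 change in HCC827 minus that in A549 was -4.81 (adjusted p = 1.49e-12).

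MMP14 rose in NCI-H358, from 5.20, 5.45 and 5.11 to 6.35, 6.33 and 6.64 (1.19 ± 0.17, adjusted p = 2.31e-05). Its A549 difference was 0.07, and its HCC827 difference was 0.65, or 0.39 without the third EMT array of that line. MMP24 fell in A549, from 8.17, 8.09 and 8.06 to 6.79, 6.92 and 6.75, and in HCC827, from 8.47, 8.85 and 8.99 to 7.42, 7.32 and 7.69. In NCI-H358, where it was lower to begin with, its levels of 5.67 to 6.17 before and 5.60 to 5.91 after overlapped. MMP28, or epilysin, the last MMP to change, fell in NCI-H358 from 4.94, 4.87 and 5.67 to 3.48, 3.03 and 3.76 (-1.74 ± 0.23, adjusted p = 9.84e-06). MMP15, MMP17 and MMP25, the other membrane-type enzymes, did not pass in any line.

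A cluster of MMP genes on chromosome 11 holds 9 of the 22 measured MMPs as consecutive protein-coding neighbours in the order MMP7, MMP20, MMP27, MMP8, MMP10, MMP1, MMP3, MMP12 and MMP13. By the 2-fold rule, neighbours did not move as a block. MMP8 rose in NCI-H358 alone, and MMP10 and MMP1 beside it rose in A549 and HCC827. MMP7 at the end of the cluster fell in all 3 lines, and MMP13 at the other end rose in HCC827 alone. In NCI-H358, MMP10, MMP1 and MMP13 differed in the same direction as MMP8, by 0.81, 0.64 and 0.63, without overlap but under 2-fold. MMP20, MMP27, MMP3 and MMP12 did not pass in any line.

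**Figure D3:**
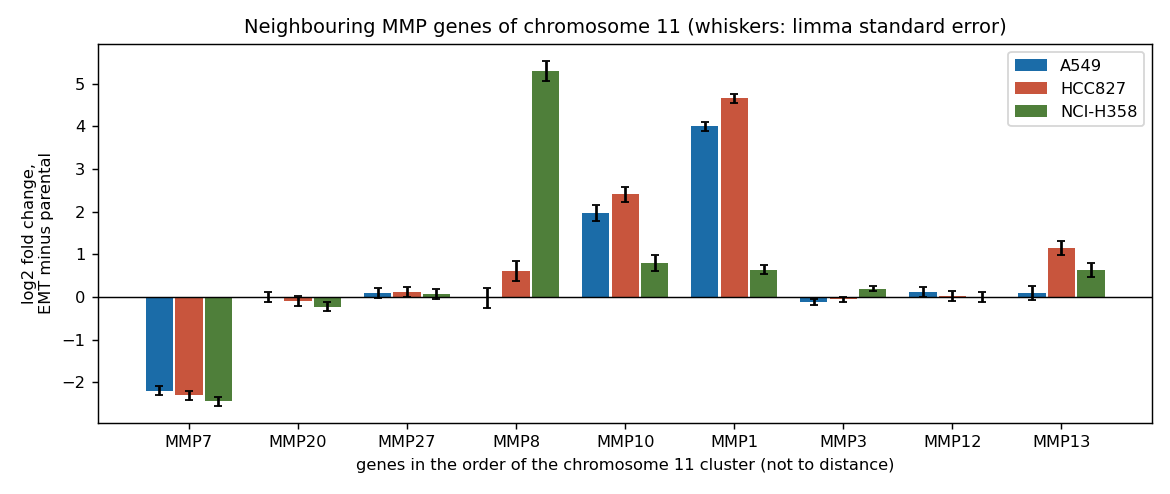
Bars give the log2 fold change from parental to EMT cells (y axis) of the 9 neighbouring MMP genes in chromosomal order (x axis), 1 colour per line, with whiskers for limma's standard error. MMP8 stands out in NCI-H358 at 5.30, MMP1 in A549 and HCC827 at 4.00 and 4.66, and MMP7 lies below 0 in every line.

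The sequences before the starts of MMP7, MMP8 and MMP10 are shown because these neighbours changed in different lines, and that of ADAMTS6 because it rose past the stricter cutoff in all 3 lines. They come from RefSeq (GRCh38.p14), lie on the minus strand, and run 200 bases 5′ to 3′ up to the base before the annotated start. Capitals mark the AP-1 element (TGAGTCA), the PEA3/ETS element (AGGAAG) and the TATA box (TATAAA), each searched on both strands.
MMP7, chr11:102530748-102530947: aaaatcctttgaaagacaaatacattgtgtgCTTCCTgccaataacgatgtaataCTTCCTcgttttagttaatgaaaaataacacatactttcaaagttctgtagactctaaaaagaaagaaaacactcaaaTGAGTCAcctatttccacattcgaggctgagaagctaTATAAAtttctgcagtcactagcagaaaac
MMP8, chr11:102724955-102725154: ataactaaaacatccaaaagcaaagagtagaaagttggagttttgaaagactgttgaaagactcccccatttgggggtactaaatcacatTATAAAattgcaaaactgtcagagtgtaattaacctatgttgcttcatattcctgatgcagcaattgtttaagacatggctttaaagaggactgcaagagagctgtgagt
MMP10, chr11:102780629-102780828: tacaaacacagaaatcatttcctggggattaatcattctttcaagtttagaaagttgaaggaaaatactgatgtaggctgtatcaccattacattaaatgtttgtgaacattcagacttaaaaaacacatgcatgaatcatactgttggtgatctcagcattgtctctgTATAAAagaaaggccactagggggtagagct
ADAMTS6, chr5:65481921-65482120: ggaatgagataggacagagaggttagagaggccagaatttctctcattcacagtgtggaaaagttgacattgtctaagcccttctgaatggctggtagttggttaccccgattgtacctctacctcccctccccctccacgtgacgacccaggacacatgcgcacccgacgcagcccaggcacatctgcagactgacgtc

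The table of promoters held 38 of the 67 members. The other members were not searched, so the counts say nothing about their promoters. Over the 250 bases before the start, the AP-1 letters occurred in 1 of these 38, MMP7, and in 4.16% of all 27305 promoters. The PEA3/ETS letters occurred in 9 of 38 and in 28.7% of all promoters. The TATA letters occurred in 7 of 38 and in 11.1% of all, and 4 of the 7 were the chromosome 11 neighbours MMP7, MMP8, MMP10 and MMP20. In MMP7 and MMP10 the TATA letters began 30 and 31 bases before the start, and in MMP8 110 bases before it. MMP7 was the only member of the 38 with all 3 elements. The match of letters is a description of these windows and not of a bound site.

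Among the 22 ADAMs, 2 rose in A549, 2 rose and 2 fell in HCC827, and 1 rose and 1 fell in NCI-H358. With 4.15%, 4.89% and 3.96% of all genes rising and 3.87%, 6.58% and 5.42% falling, these counts are near the background. ADAM19, or meltrin beta, a protease that can release neuregulin, was the ADAM that rose in all lines. It went from 7.23, 7.45 and 7.10 to 11.42, 11.40 and 11.38 in A549 and from 4.37, 4.28 and 4.33 to 10.24, 10.13 and 10.18 in HCC827. In NCI-H358 it went from 9.46, 9.38 and 9.60 to 10.63, 10.53 and 10.74. The rises were 17.6-fold, 57.8-fold and 2.22-fold (4.14, 5.85 and 1.15, each ± 0.08 SE; adjusted p = 4.76e-16, 6.53e-18 and 4.67e-09). Parental levels differed by up to 5.15 between NCI-H358 and HCC827, whereas the means after EMT lay between 10.18 and 11.40.

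ADAM12, or meltrin alpha, rose 16.3-fold in HCC827, from 4.53, 5.31 and 5.05 to 8.90, 9.06 and 9.02 (4.02 ± 0.18, adjusted p = 8.27e-12). In A549 it rose 2.08-fold, from 5.82, 5.66 and 5.46 to 6.45, 6.99 and 6.66, just past the rule, and the change was 0.96 without the third parental array and 0.91 without the second EMT array. NCI-H358 differed by 0.66, which did not reach 2-fold. The HCC827 change exceeded the A549 change by 2.97 (adjusted p = 6.58e-08).

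Of the ADAMs that fell, ADAM28, ADAM8 and ADAM9, each passed the 2-fold rule in 1 line. ADAM28, a lymphocyte and epithelial ADAM, fell in HCC827 from 6.82, 6.48 and 6.37 to 4.07, 4.14 and 3.90 (-2.52 ± 0.18, adjusted p = 2.43e-09). In NCI-H358, with a middle parental level of 6.87, the difference was -0.62, and in A549 its levels of 3.00 to 3.90 were low in both states. ADAM8, an ADAM known from leukocytes, fell 5.08-fold in NCI-H358, from 9.32, 9.25 and 9.60 to 7.02, 7.18 and 6.95 (-2.34 ± 0.09, adjusted p = 7.34e-13), or 4.72-fold without the third parental array and 4.91-fold without the third EMT array. On the 12 arrays of the other lines ADAM8 lay between 6.30 and 6.63. ADAM9 fell in HCC827 by 1.01, at the edge of the 2-fold rule, and differed by -0.88 in A549, without overlap, and by -0.24 in NCI-H358. The ADAM9 change in HCC827 minus that in A549 was -0.13 (interval -0.57 to 0.31, adjusted p = 0.675).

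ADAM10 and ADAM17, the main sheddases of the cell surface, moved little. ADAM10 lay between 7.96 and 8.79 on all arrays, with differences of 0.45, -0.04 and 0.40. ADAM17, which releases TNF and EGFR ligands, lay between 7.47 and 8.22, with differences of -0.30, -0.34 and 0.49. None reached 2-fold, although the ADAM17 arrays did not overlap in any line and the sign in NCI-H358 was opposite to that in the others. The ADAM10 probe set is of a type that can bind related transcripts.

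ADAMTS genes rose or did not pass: none fell in any line, and 3, 4 and 4 of the 19 rose in A549, HCC827 and NCI-H358. The shares of all genes that rose were 4.15%, 4.89% and 3.96%, and those that fell were 3.87%, 6.58% and 5.42%, so that a count of 0 falls among 19 genes is near the background. ADAMTS1, a proteoglycanase that cuts versican and aggrecan, went from 4.19, 4.25 and 3.90 to 6.37, 6.44 and 6.52 in A549. In HCC827 it went from 6.69, 7.36 and 7.29 to 9.87, 9.72 and 9.70, and in NCI-H358 from 5.98, 5.98 and 5.95 to 8.44, 8.42 and 8.43. The rises were of like size, 5.05-fold, 6.27-fold and 5.49-fold (2.33, 2.65 and 2.46, each ± 0.13 SE; adjusted p = 2.39e-10, 3.2e-11 and 1.05e-10). The 95% intervals of the differences between lines spanned -0.59 to 0.71. In A549 the rise was 4.69-fold without the third parental array and 4.91-fold without the third EMT array, under the stricter cutoff.

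ADAMTS6, a less studied member of the family known to act on fibrillin microfibrils, had the largest A549 rise of the ADAMTS genes. It went from 3.79, 3.86 and 2.84 to 9.09, 9.05 and 9.04, a 47.2-fold rise (5.56 ± 0.18, adjusted p = 1.9e-13). HCC827 went from 6.84, 6.88 and 7.05 to 10.18, 10.20 and 10.07 (9.37-fold), and NCI-H358 from 4.70, 5.01 and 5.07 to 7.99, 8.02 and 8.09 (8.61-fold). Parental A549 levels were low, so the limit given for the MMP8 fold also holds for the A549 fold and for differences from it. The third parental A549 array was below the others. The change in HCC827 minus that in A549 was -2.33 and that in NCI-H358 minus A549 was -2.46, and without this array they were -2.01 and -2.13 and missed the stricter cutoff. The contrast with HCC827 also missed it without the first A549 EMT array (-2.32), the third parental HCC827 array (-2.27) or the third HCC827 EMT array (-2.29).

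ADAMTS9, another versican-cutting enzyme, rose in A549 alone, from 6.33, 6.42 and 6.00 to 8.75, 8.74 and 8.64 (2.46 ± 0.20, adjusted p = 3e-08). The HCC827 groups overlapped at -0.11, with an interval from -0.54 to 0.32, and the NCI-H358 difference was 0.84. ADAMTS3, a procollagen N-proteinase that also processes VEGF-C, rose in the other lines, in HCC827 from 3.70, 3.55 and 3.42 to 5.02, 5.55 and 5.81 and in NCI-H358 from 7.34, 7.59 and 7.31 to 9.13, 8.99 and 9.16. Its A549 groups overlapped, between 3.11 and 3.67. ADAMTS15 rose 2.76-fold in HCC827 and 2.28-fold in NCI-H358, and its 1.70-fold difference in A549 did not reach the rule. ADAMTS2 and ADAMTS14, the other procollagen N-proteinases, and the aggrecanases ADAMTS4 and ADAMTS5 did not pass in any line.

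**Figure D4:**
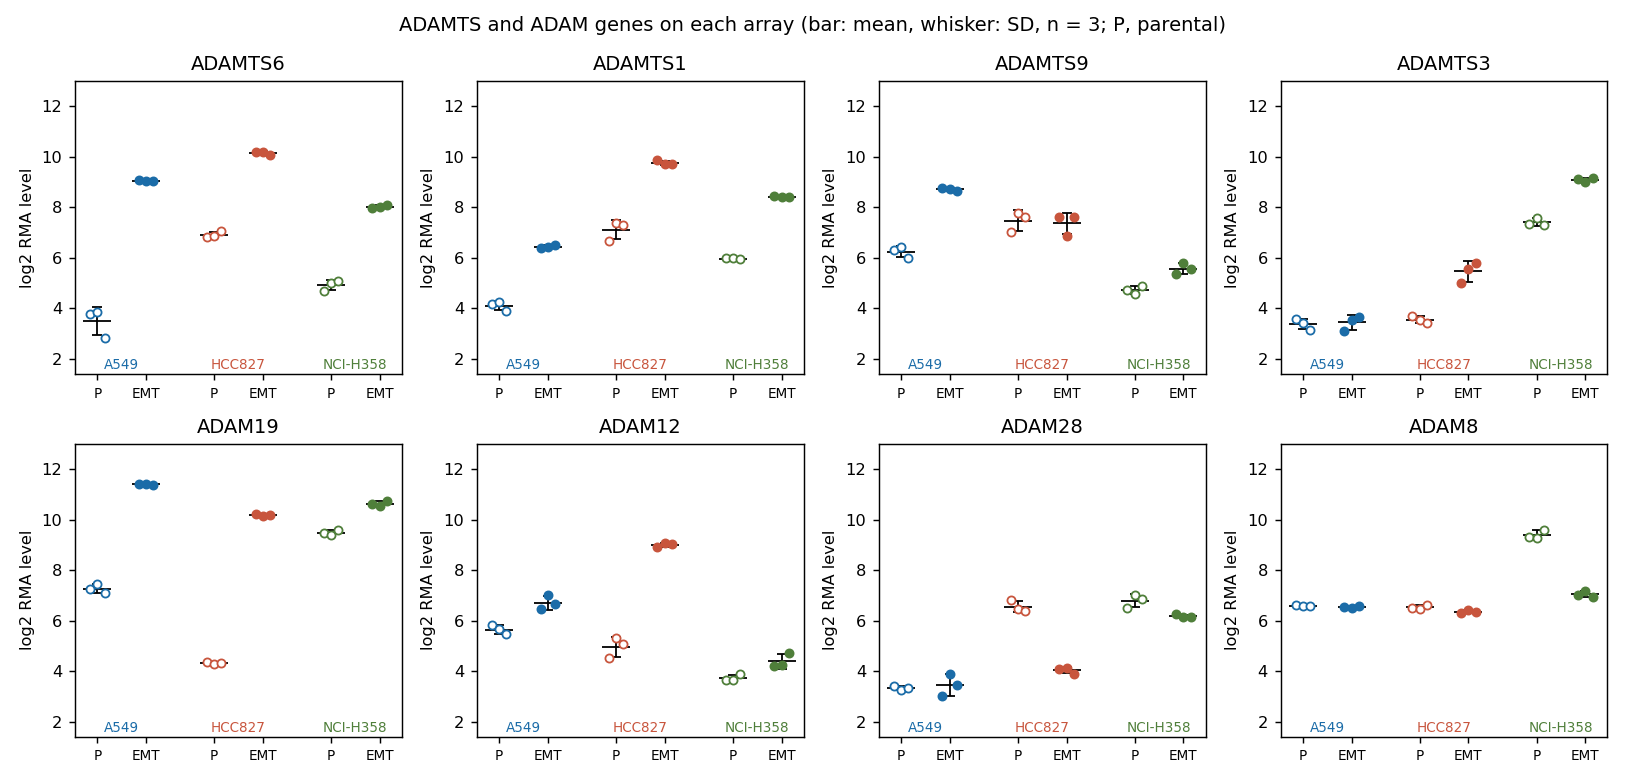
The log2 RMA level (y axis) of 4 ADAMTS and 4 ADAM genes is plotted for each array by line and state (x axis), with open points for parental (P) and filled points for EMT arrays, and the mean and SD of 3 arrays. ADAMTS6, ADAMTS1 and ADAM19 are higher after EMT in every line, ADAMTS9 in A549 by 2.46, ADAM12 mainly in HCC827, and ADAM28 and ADAM8 are lower in HCC827 and NCI-H358, respectively.

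Of the 4 TIMP genes, A549 raised 2, HCC827 raised 3 and NCI-H358 raised 1, and none fell. Over all genes, 4.15%, 4.89% and 3.96% rose and 3.87%, 6.58% and 5.42% fell, so a lack of falls among 4 genes is near the background. TIMP2, which blocks MMP2 and also takes part in its activation at the cell surface, rose in all lines without overlap. It went from 8.06, 8.05 and 8.02 to 10.88, 10.89 and 10.80 in A549, from 8.07, 8.06 and 8.15 to 9.53, 9.62 and 9.78 in HCC827, and from 8.80, 8.91 and 8.91 to 10.69, 10.64 and 10.68 in NCI-H358. The rises were 7.01-fold, 2.93-fold and 3.48-fold (2.81, 1.55 and 1.80, each ± 0.07 SE; adjusted p = 2.21e-15, 4.19e-12 and 8.39e-13). The change in HCC827 minus that in A549 was -1.26, with an interval from -1.46 to -1.06.

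TIMP3, the matrix-bound inhibitor that also blocks ADAM17 and ADAMTS enzymes, divided the lines. It went from 4.33, 4.38 and 4.66 to 7.42, 7.58 and 7.62 in A549 and from 3.97, 4.05 and 3.76 to 7.19, 7.07 and 7.23 in HCC827. In NCI-H358 the groups overlapped, at 3.56, 3.56 and 3.63 before and 3.78, 3.97 and 3.30 after. The rises were 8.48-fold and 9.42-fold (3.08 and 3.24, each ± 0.13 SE; adjusted p = 6.58e-12 and 2.8e-12), and the NCI-H358 difference was 0.10, with an interval from -0.19 to 0.38. MMP1, MMP2, MMP10 and TIMP3 were therefore alike in rising in A549 and HCC827 and not passing in NCI-H358. For MMP1, MMP2 and TIMP3 the smaller NCI-H358 change passed the stricter cutoff against both lines, and for MMP10 it did not (adjusted p = 0.00184 and 0.000118 for the contrasts with A549 and HCC827).

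TIMP1, a broad MMP inhibitor, was bright in every sample. It went from 11.15, 11.17 and 11.05 to 11.99, 12.10 and 12.09 in A549, from 10.98, 10.74 and 10.74 to 11.91, 11.99 and 12.07 in HCC827, and from 11.29, 11.34 and 11.28 to 12.05, 12.02 and 12.17 in NCI-H358. The arrays did not overlap in any line, but the change passed the 2-fold rule in HCC827 alone (2.25-fold, against 1.91-fold and 1.71-fold). TIMP4 was highest in A549, at 7.16 to 7.29 before and 6.81 to 6.96 after, and its differences of -0.33, 0.55 and 0.98 passed in no line.

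**Figure D5:**
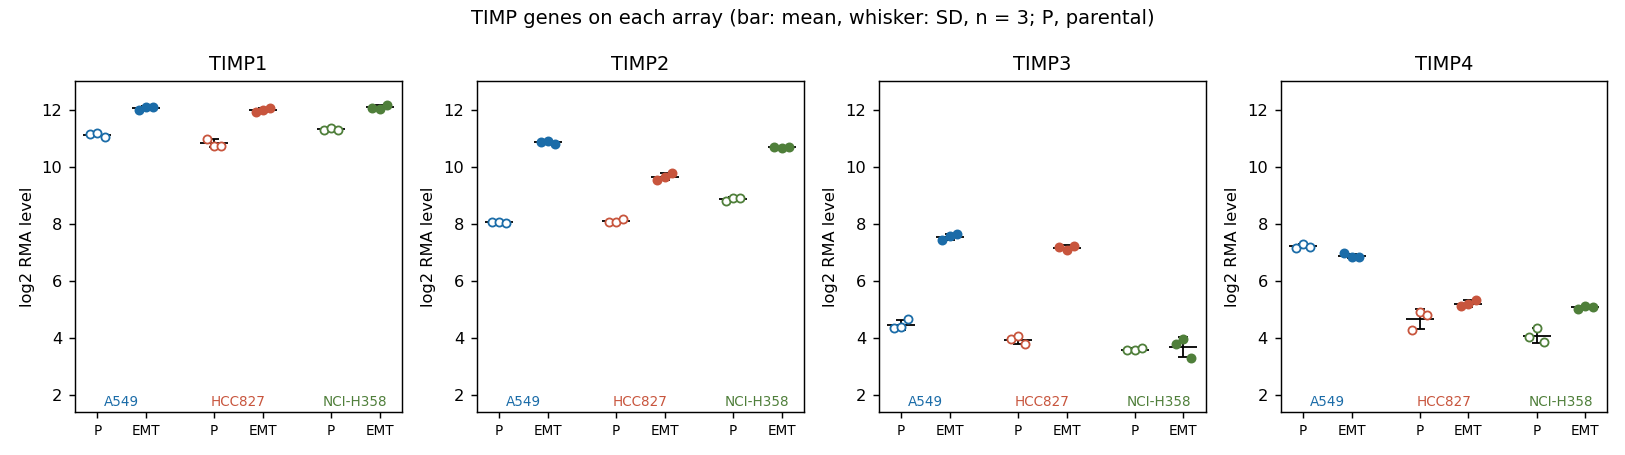
The log2 RMA level (y axis) of the 4 TIMP genes is plotted for each array by line and state (x axis), with open points for parental (P) and filled points for EMT arrays, and the mean and SD of 3 arrays. TIMP2 is higher after EMT in all lines, TIMP3 in A549 and HCC827 by 3.08 and 3.24 and not in NCI-H358, where its groups overlap.

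The difference between lines in the EMT change was tested for every gene, by the stricter cutoff. It passed for 6 members between HCC827 and A549, 8 between NCI-H358 and A549 and 6 between NCI-H358 and HCC827, against 2.92%, 3.01% and 2.06% of all genes. These contrasts share arrays pairwise, as each line enters more than 1. Differences in either direction are included.

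Parental lines also differed in some of these genes. By the stricter cutoff, 5 members differed between HCC827 and A549, 7 between NCI-H358 and A549 and 8 between NCI-H358 and HCC827. These are 7.46%, 10.4% and 11.9% of the members, against 5.15%, 6.19% and 3.32% of all genes, so the count for HCC827 and A549 is near the background. Parental NCI-H358 exceeded parental A549 by 3.95 for MMP1, 4.73 for MMP13, 4.26 for MMP16, 4.03 for ADAMTS3 and 2.81 for ADAM8, and it exceeded parental HCC827 by 3.21, 3.93, 4.44, 3.86 and 2.87 for the same genes. ADAM28 was higher in parental HCC827 and NCI-H358 than in parental A549, by 3.22 and 3.45. TIMP4 went the other way, with HCC827 minus A549 at -2.55 and NCI-H358 minus A549 at -3.13. Parental HCC827 exceeded parental A549 by 3.00 for ADAMTS1 and 3.43 for ADAMTS6. The changes above and these parental differences use the same parental arrays.

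Of 34 further gene symbols listed for proteins that process, partner, inhibit or resemble these enzymes, 32 were in the table. ADAMTSL6, counted as absent, is another name of THSD4, which was present. In A549, 4 rose and 3 fell. In HCC827, 5 rose and 2 fell, and in NCI-H358, 2 rose and 2 fell. Over all genes, the lines in this order had 4.15%, 4.89% and 3.96% rising and 3.87%, 6.58% and 5.42% falling, so the NCI-H358 counts in particular are near the background. RECK, a membrane-anchored MMP inhibitor, rose by 2.10 in HCC827 and 2.11 in NCI-H358, and its A549 difference was 0.68. TSPAN15, a tetraspanin that partners ADAM10, fell by 2.49 in A549 and by 1.72 in HCC827, while TSPAN5, another ADAM10 tetraspanin, rose by 1.24 in A549. Of the partners of ADAM17, FRMD8 rose by 1.27 in A549 and RHBDF1, or iRhom1, fell by 1.33 in NCI-H358.

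Among proprotein convertases, which cut the prodomains of many of these enzymes, PCSK6 alone passed, falling by 2.93 in HCC827, and FURIN differed by 0.92, 0.52 and 0.50. PAPLN, or papilin, an ADAMTS-like matrix protein, was the gene of these lists that changed in opposite directions: it fell by 3.27 in A549 and rose by 1.08 in HCC827 and 1.37 in NCI-H358. THSD4, another ADAMTS-like gene, fell by 1.35 in A549 and by 1.30 in NCI-H358. Of the other metzincins, PAPPA, which cuts IGF-binding proteins, rose by 1.34 in A549 and 4.30 in HCC827. BMP1, the procollagen C-proteinase, rose by 1.35 in HCC827, as did PAPPA2 by 1.46, and TLL2 rose by 1.34 in A549.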

How the data were processed

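The authors hybridised total RNA to Affymetrix human arrays, normalized them by RMA and deposited log2 expression values, 1 probe set per gene, in a table of 19849 genes for 18 arrays. The rule that chose the probe set and the RMA version are not given in the sources used here. RMA fits all arrays together and reports no detection call, so low levels are compressed and small differences between dim genes are uncertain. Precision is limited by having 3 arrays in each group. Besides the gene labels and the 18 arrays, the deposited table held no columns of the authors' own comparisons.

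Groups were taken from the sample labels. All genes were fitted in 1 linear model of 6 groups with limma 3.58.1 in R 4.3.3, with no covariate, empirical Bayes moderation and Benjamini-Hochberg adjustment over all genes within each contrast. Contrasts were EMT against parental in each line, the differences of these changes between lines, and parental line against parental line. Errors of log2 changes are standard errors. The step was tested on simulated data. The members and lists were chosen with earlier results of these data known. Genes named were those past the stricter cutoff, those changed alike in all 3 lines or oppositely in a pair of lines, and a list set by family role. MMP11, MMP12, MMP15, MMP17, MMP20, MMP24, MMP25, MMP27, MMP28, ADAM5, ADAM6, ADAM9, ADAMTS2, ADAMTS3, ADAMTS4, ADAMTS5, ADAMTS14 and ADAMTS15 were named outside it, after their values were seen. ADAMs were kept as 1 group, since no protein sequences were used here. Promoters were matched by gene ID. Alternatives were other thresholds, a fit per line, an intensity trend, dim probe sets left out, median centring, Student's t-test and each array left out. For the arrays, the study's methods name limma, and they give Student's t-test for data where nothing else is specified.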

Additional observations from a re-analysis of the deposited data

Results flagged for a closer look

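The EMT change of 20 combinations of a member and a pair of lines differed between the lines by the interaction contrast of limma, at an adjusted p under 1e-05 and more than 5-fold. Values are log2 differences of the changes. For HCC827 minus A549 they were 2.97 for ADAM12, -2.63 for ADAM28, -2.33 for ADAMTS6, -2.57 for ADAMTS9, -4.81 for MMP16 and 5.47 for MMP9. For NCI-H358 minus A549 they were -2.99 for ADAM19, -2.46 for ADAMTS6, -3.36 for MMP1, -3.93 for MMP16, -5.77 for MMP2, 5.32 for MMP8, 3.62 for MMP9 and -2.99 for TIMP3. For NCI-H358 minus HCC827 they were -3.36 for ADAM12, -4.70 for ADAM19, -4.02 for MMP1, -6.65 for MMP2, 4.69 for MMP8 and -3.14 for TIMP3.

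The ADAMTS6 differences fell below the stricter cutoff when the third parental A549 array was left out (-2.01 and -2.13). That of HCC827 against A549 was also lost without the first A549 EMT array (-2.32), the third HCC827 parental array (-2.27) or the third HCC827 EMT array (-2.29). The ADAMTS9 difference was lost without the second HCC827 EMT array (-2.32). The cause of the differences between lines was not tested.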

How the results depend on the processing

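All 44 changes of a member in a line kept their call under an intensity trend, a fit per line and Student's t-test with adjustment. Without dim probe sets, 40 of the 40 that could be tested did so. That filter kept 45 members and left out MMP8, MMP10 and MMP28 among the changed ones. With arrays centred on their medians, 43 of 44 were kept, and ADAM9 in HCC827 went to -0.94. With each array left out, 788 of 792 calls were kept. The 4 lost were ADAM12 in A549 (0.96 and 0.91), ADAM9 in HCC827 (-0.96, without the second parental array) and MMP13 in HCC827 (0.92). Each was lost without an array of the line concerned. By the stricter cutoff, MMP10 in HCC827 was lost without the first EMT array (4.93-fold), and ADAM8 in NCI-H358 without the third parental or the third EMT array (4.72-fold and 4.91-fold). MMP7 in HCC827 passed it without the first parental or the third EMT array (5.09-fold and 5.12-fold), and the ADAM8 difference of NCI-H358 against A549 passed in 4 such fits (5.03-fold to 5.19-fold). None reversed.

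The counts in this paragraph are of members alone. No share of all genes is given for these altered settings, so the counts show only how the calls depend on the rule. Asking for more than 5-fold left 0 members lower in A549, 9 higher and 1 lower in HCC827, and 4 higher in NCI-H358. Asking for more than 2-fold at the stricter adjusted p gave 16 members in HCC827 and 12 in NCI-H358, and 9, 16 and 13 in the parental contrasts of HCC827 with A549, NCI-H358 with A549 and NCI-H358 with HCC827. Student's t-test, not the study's test for arrays, gave 0 members at the stricter cutoff in each line and in each parental contrast. At an unadjusted p under 0.05 and more than 5-fold it gave 9, 10 and 6 members in A549, HCC827 and NCI-H358. In the parental contrasts it gave 5, 7 and 8. These equal limma's counts at an adjusted p under 1e-05. The folds are the same in both tests, so the equal counts are no check of either. With moderation, limma's test had 16.1 degrees of freedom, and each t-test used 3 arrays against 3. The cause of the difference between the tests was not tested. No paired analysis was possible because the labels give no shared replicate numbers.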
